A study of Mus musculus with 9 samples.

Results

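The circadian clock and output genes examined here were 10 genes that keep or pass on daily time in mouse tissue: Dbp, Tef, Nr1d1, Nr1d2, Per1, Per2, Per3, Arntl, Npas2 and Nfil3. They were taken by symbol from a deposited table of 55361 transcript entries, and the entries of each gene were summed, so they are 10 of 25468 genes. They were chosen by their FPKM in the 3 groups below, so their levels and differences are a description and carry no test.

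Bulk RNA sequencing was carried out on total RNA of hearts from wild-type mice, with 3 libraries from hearts 1 day after acute myocardial infarction, 3 from hearts 7 days after it and 3 from sham-operated hearts. An infarction is the death of heart muscle after its blood supply is cut off. The labels give no region of the heart, strain, age, sex or number of animals, no day for the sham hearts, and no hour of collection for any heart. Because these transcripts follow the hour of the day, infarction and the hour of collection cannot be told apart here.

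The clock is a feedback loop. ARNTL (also called BMAL1), paired with CLOCK or its relative NPAS2, binds E-boxes and switches on the Per, Cry, Nr1d, Dbp and Tef genes. PER and CRY proteins then block that pair, and the REV-ERB receptors made from Nr1d1 and Nr1d2 silence Arntl, Npas2 and Nfil3 through ROR elements, so that in tissues, heart included, Dbp and Nr1d1 peak at about the opposite time of day to Arntl. DBP and TEF activate genes through D-boxes, and NFIL3 represses through the same sites.

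Promoter sequences were available for 9 of the 10 genes, and Per2 had no entry. Each window, from RefSeq on build GRCm38.p6, runs from 250 bases before to 50 after an annotated start. Windows were searched on both strands for the E-box (CACGTG), the E'-box (CACGTT), the D-box (TTATGTAA or TTACGTAA), the core of the ROR element (TAGGTCA or TGGGTCA) and the cAMP element (TGACGTCA). The 6 windows below are shown because they hold the letters through which the 2 arms of the loop are known to be read, with the match in capitals.
Per1, E-box, chr11:69098699-69098998, plus strand: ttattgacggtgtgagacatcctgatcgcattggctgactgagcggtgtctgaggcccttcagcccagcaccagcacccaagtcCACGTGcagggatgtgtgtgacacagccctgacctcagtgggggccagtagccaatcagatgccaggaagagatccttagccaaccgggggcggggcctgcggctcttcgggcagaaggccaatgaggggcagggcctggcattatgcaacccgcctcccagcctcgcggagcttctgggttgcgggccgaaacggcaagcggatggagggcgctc
Tef, E-box, chr15:81811164-81811463, plus strand: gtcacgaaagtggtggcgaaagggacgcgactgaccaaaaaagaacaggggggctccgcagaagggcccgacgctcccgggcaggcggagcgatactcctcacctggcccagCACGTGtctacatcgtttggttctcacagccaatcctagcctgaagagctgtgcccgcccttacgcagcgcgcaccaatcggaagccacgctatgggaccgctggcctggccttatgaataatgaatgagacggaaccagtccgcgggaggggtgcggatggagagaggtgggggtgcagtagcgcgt
Nr1d1, E'-box on the opposite strand, chr11:98775328-98775627, minus strand: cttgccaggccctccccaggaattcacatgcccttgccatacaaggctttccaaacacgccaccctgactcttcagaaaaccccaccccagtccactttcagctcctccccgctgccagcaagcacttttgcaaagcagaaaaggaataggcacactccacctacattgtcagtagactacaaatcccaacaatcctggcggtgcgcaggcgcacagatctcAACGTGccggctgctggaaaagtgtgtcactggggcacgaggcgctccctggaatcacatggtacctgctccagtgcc
Per3, a pair of D-boxes, chr4:151044616-151044915, minus strand: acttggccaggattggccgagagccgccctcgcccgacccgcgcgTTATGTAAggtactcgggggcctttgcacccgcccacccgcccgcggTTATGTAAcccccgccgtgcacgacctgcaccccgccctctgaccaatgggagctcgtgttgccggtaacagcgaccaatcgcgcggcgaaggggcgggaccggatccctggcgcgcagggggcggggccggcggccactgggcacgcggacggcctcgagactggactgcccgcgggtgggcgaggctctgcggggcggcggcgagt
Arntl, ROR element core, chr7:113207261-113207560, plus strand: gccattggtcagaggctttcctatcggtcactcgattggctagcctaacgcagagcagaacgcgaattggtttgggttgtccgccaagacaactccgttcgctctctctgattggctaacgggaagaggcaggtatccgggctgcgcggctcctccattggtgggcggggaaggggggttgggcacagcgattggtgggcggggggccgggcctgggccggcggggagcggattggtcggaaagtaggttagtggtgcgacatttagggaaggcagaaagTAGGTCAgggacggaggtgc
Nfil3, ROR element core on the opposite strand, chr13:52980990-52981289, minus strand: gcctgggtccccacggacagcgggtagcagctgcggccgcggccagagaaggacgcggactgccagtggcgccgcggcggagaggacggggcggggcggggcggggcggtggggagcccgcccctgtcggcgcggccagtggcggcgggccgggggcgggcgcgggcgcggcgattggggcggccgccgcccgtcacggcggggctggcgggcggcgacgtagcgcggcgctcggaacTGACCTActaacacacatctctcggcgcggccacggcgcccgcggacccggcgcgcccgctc

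An E-box was found in 1 of the 2 windows of Per1 and in both of Tef. It stood in 7.15% of all 32851 promoter windows, and 8.09% of genes had it in at least 1 window. The E'-box was found for Nr1d1, and in 4.68% of windows and 5.44% of genes. The D-box stood in the Per3 window at positions -205 and -158, where positions before the start are negative, and in 1.06% of windows and 1.23% of genes. The ROR element core was found in 1 of the 2 windows of Arntl, at position 30, and for Nfil3 at position -12, and in 6.45% of windows and 7.35% of genes. The cAMP element matched 0 of the 9 genes, 1.79% of windows and 2.03% of genes. A match is a run of letters, and binding was not measured in these samples.

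The heart identity of the libraries was plain, with the 9 heart muscle markers summing to between 14114 and 37579 FPKM, a level scaled by transcript length and by the library's mapped fragments. The FPKM of a library totalled 521643 to 792632, and the number of reads behind them is unknown. Markers of other tissues were high in some libraries. Summed airway markers reached 1527 FPKM in day 1 library 2 and 212 FPKM in sham library 1, against 18 FPKM or less in the other 7. The fat cell marker Adipoq was at 11.3 and 21.6 FPKM in day 1 libraries 1 and 2, at 9.22 FPKM in day 7 library 2 and at 69 FPKM in sham library 1, against 2 FPKM or less in the other 5. The skeletal muscle myosin Myh4 was at 59.8 FPKM in day 7 library 2, against 0.411 FPKM or less elsewhere. The 6 atrial markers summed to between 237 and 11106 FPKM, and the 4 T cell markers to 52 FPKM in day 7 library 2, against 9.98 or less elsewhere. Markers of cell types also moved with the groups. All 5 neutrophil markers rose at day 1, and monocyte and macrophage markers rose in 3 of 6 cases at day 1 and 4 of 6 at day 7. Heart muscle markers fell in 5 of 9 cases at day 1 and 6 of 9 at day 7, and 2 of 4 fibroblast markers rose at each time (limma, adjusted p under 0.05 for all of these).

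The 2 arms of the loop stood in opposite positions in the infarcted hearts. At day 1, Dbp, Tef, Nr1d1, Nr1d2, Per1 and Per3 were lower than in sham, and Arntl, Npas2 and Nfil3 were higher on average. At day 7 the picture was turned round for Dbp, Tef and Per3, which were above sham, and for Arntl and Nfil3, which were below it. Npas2 was then below sham on average but overlapped it through 1 library. The day 7 values of Nr1d1, Nr1d2, Per1 and Per2 overlapped the range of sham too, with 1 Per1 library well above it.

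**Figure D1:**
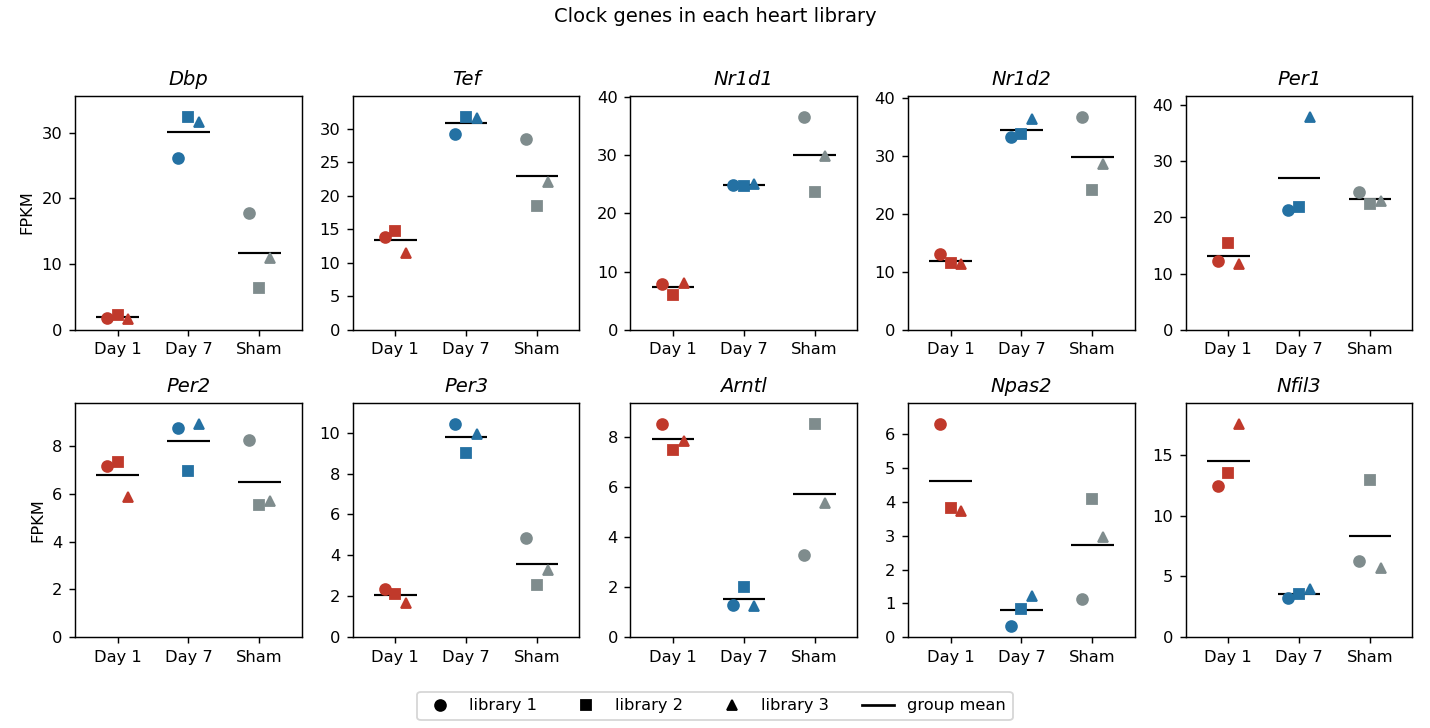
FPKM of the 10 genes in each library (vertical axes, each from 0) for day 1, day 7 and sham, with a marker shape per library number and a line at the group mean. Dbp lies at 1.55 to 2.29 FPKM at day 1 and 26.2 to 32.4 FPKM at day 7, with sham between 6.38 and 17.8 FPKM, and Arntl shows the reverse order.

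Among the output factors, Dbp had the widest swing. It was at 1.84, 2.29 and 1.55 FPKM at day 1 and at 26.2, 32.4 and 31.6 FPKM at day 7, against 17.8, 6.38 and 10.9 FPKM in sham. Every day 1 library was below, and every day 7 library above, every sham library. On the log2(FPKM + 1) scale the difference from sham was -2.03 (SE 0.29) at day 1 and 1.39 (SE 0.29) at day 7, and day 7 exceeded day 1 by 3.42 (SE 0.29). Exons of Dbp overlap exons of Sphk2, a sphingosine kinase gene on the other strand, and the sources used here do not say whether strand was used in counting. Sphk2 was at 6.15, 7.28 and 6.05 FPKM at day 1 and 11.4, 12.2 and 11.1 FPKM at day 7, against 9.67, 6.71 and 8.75 FPKM in sham.

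Tef, the second activator of D-boxes, followed the same order with a smaller swing. It was at 13.9, 14.8 and 11.5 FPKM at day 1 and at 29.2, 31.8 and 31.6 FPKM at day 7, against 28.5, 18.5 and 22 FPKM in sham. Its groups did not overlap either, with day 1 lowest and day 7 highest. The log2 difference from sham was -0.72 (SE 0.15) at day 1 and 0.43 (SE 0.15) at day 7.

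Nfil3, the repressor of D-boxes, ran the other way. It was at 12.4, 13.5 and 17.5 FPKM at day 1 and at 3.21, 3.54 and 3.98 FPKM at day 7, against 6.31, 12.9 and 5.71 FPKM in sham. Day 7 lay below every sham library, while day 1 overlapped sham through sham library 2. The log2 difference from sham was 0.80 (SE 0.26) at day 1 and -0.95 (SE 0.26) at day 7. Without sham library 2 the day 1 value was 1.13 and the day 7 value -0.62.

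The REV-ERB genes were low at day 1 and near sham at day 7. Nr1d1 was at 7.88, 5.98 and 8.07 FPKM at day 1 and at 24.9, 24.7 and 25.1 FPKM at day 7, against 36.6, 23.6 and 29.9 FPKM in sham. Day 1 was below every sham library, and the 3 day 7 libraries lay within the sham range and close to one another. The log2 difference from sham was -1.89 (SE 0.16) at day 1 and -0.24 (SE 0.16) at day 7, and the day 7 value changed sign to 0.11 when FPKM were rescaled to a common total. Nr1d1 overlaps the thyroid receptor gene Thra on the other strand, which was at 28.3, 22.2 and 19.7 FPKM at day 1 and 22.2, 22.4 and 22 FPKM at day 7, against 30.2, 26.8 and 29.7 FPKM in sham.

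Nr1d2 was at 13, 11.5 and 11.3 FPKM at day 1 and at 33.3, 33.8 and 36.4 FPKM at day 7, against 36.8, 24.2 and 28.7 FPKM in sham. Its log2 difference from sham was -1.24 (SE 0.14) at day 1 and 0.22 (SE 0.14) at day 7. The balance of the pair is given as a description, since both genes had been chosen with the group differences known. No share over other pairs of genes was taken for it. The ratio of Nr1d1 to Nr1d2 within a library was 0.608, 0.520 and 0.711 at day 1 and 0.747, 0.730 and 0.690 at day 7, against 0.994, 0.978 and 1.04 in sham, so neither infarct group overlapped sham. A ratio within a library does not depend on how libraries are scaled, though the levels of Nr1d1 carry the overlap named above.

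The 3 Period genes, repressors of the ARNTL pair, did not move alike. Per3 was at 2.38, 2.11 and 1.65 FPKM at day 1 and at 10.4, 9.02 and 9.93 FPKM at day 7, against 4.85, 2.55 and 3.28 FPKM in sham. As for Dbp and Tef, its day 1 libraries were all below and its day 7 libraries all above sham, with log2 differences of -0.56 (SE 0.18) and 1.27 (SE 0.18). Per1 was at 12.3, 15.4 and 11.7 FPKM at day 1 and at 21.4, 21.8 and 37.9 FPKM at day 7, against 24.6, 22.3 and 23 FPKM in sham. Day 1 was below every sham library (log2 difference -0.79, SE 0.20), and at day 7 libraries 1 and 2 were just below the sham values and library 3 above them (log2 difference 0.16, SE 0.20). Without day 7 library 3 the day 7 value was -0.10, and on the most expressed transcript alone it was -0.17.

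Per2 was the most even of the 10. It was at 7.19, 7.35 and 5.86 FPKM at day 1 and at 8.77, 6.95 and 8.91 FPKM at day 7, against 8.24, 5.54 and 5.72 FPKM in sham. All 3 groups overlapped, with log2 differences from sham of 0.07 (SE 0.15) at day 1 and 0.31 (SE 0.15) at day 7. The ratio of Per1 to Per2 was 1.70, 2.10 and 2.0 at day 1 and 2.45, 3.14 and 4.25 at day 7, against 2.99, 4.02 and 4.02 in sham.

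The activators were highest at day 1 and lowest at day 7. Arntl was at 8.52, 7.51 and 7.84 FPKM at day 1 and at 1.30, 2.0 and 1.25 FPKM at day 7, against 3.29, 8.52 and 5.38 FPKM in sham. Day 7 was below every sham library, and day 1 overlapped sham through sham library 2. The log2 difference from sham was 0.49 (SE 0.25) at day 1 and -1.36 (SE 0.25) at day 7. The day 1 value hung on the sham libraries, being 0.20 without library 1 and 0.77 without library 2.

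Npas2 was the lowest of the 10 in sham. It was at 6.29, 3.81 and 3.72 FPKM at day 1 and at 0.337, 0.848 and 1.23 FPKM at day 7, against 1.12, 4.10 and 2.96 FPKM in sham. Both infarct groups overlapped sham, at day 7 through library 3, and they did not overlap each other. The log2 difference from sham was 0.65 (SE 0.33) at day 1 and -0.99 (SE 0.33) at day 7. The day 1 value was 0.29 without sham library 1.

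**Figure D2:**
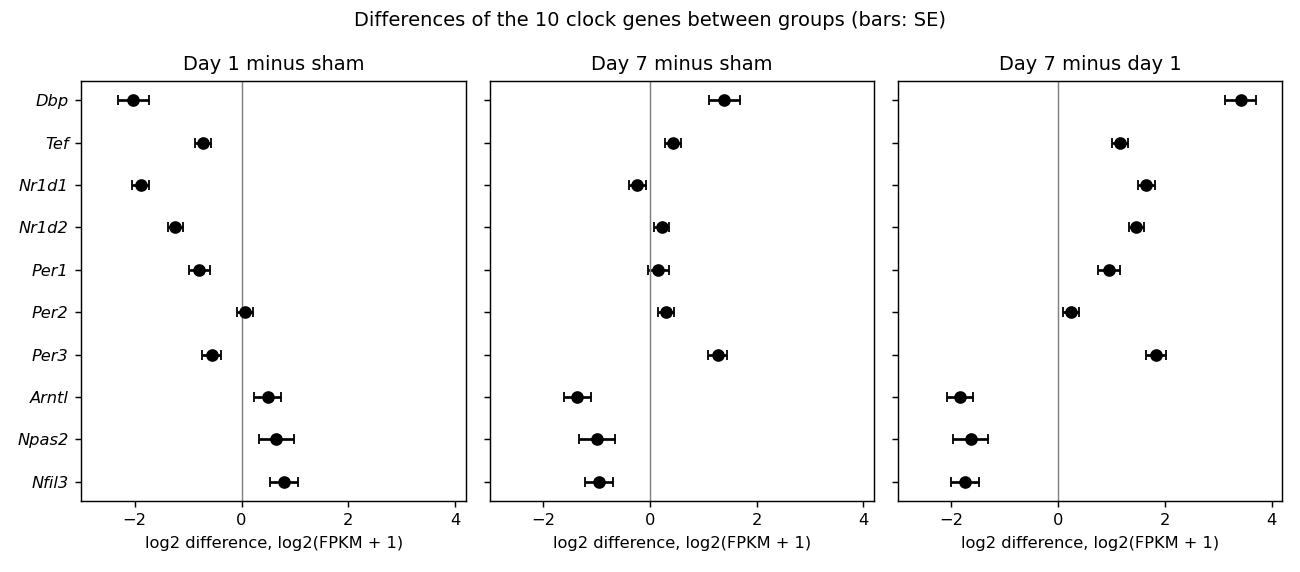
Log2 differences of the 10 genes on the log2(FPKM + 1) scale (horizontal axes) for day 1 minus sham, day 7 minus sham and day 7 minus day 1, with SE bars. Between day 7 and day 1 the first 7 genes are above 0, from 0.24 for Per2 to 3.42 for Dbp, and Arntl, Npas2 and Nfil3 are below 0, from -1.64 to -1.84.

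Counted over the 10 genes, 6 were lower in every day 1 library than in every sham library and 0 were higher, where 25.1% of the 13514 genes with a mean of 1 FPKM or more were lower and 22.5% higher in this way. At day 7, 3 were higher and 2 lower than every sham library, against 25.0% and 28.8% of all genes. Between the infarct groups, 6 were higher and 3 lower in every day 7 library than in every day 1 library, against 13.1% and 14.1% of all genes. Dbp, Tef and Per3 were below sham at day 1 and above it at day 7 without overlap, a pattern held by 0.488% of all genes, and 0.385% of genes had the reverse pattern. These shares are a background only, since the contrasts had served to pick the genes. The comparisons with sham share the same 3 sham libraries, and those that involve day 1 or day 7 share these libraries too.

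Fewer cells of a type and less RNA per cell cannot be told apart in bulk RNA. The 9 heart muscle markers had median log2 differences from sham of -0.80 at day 1 and -0.76 at day 7. The first lies between the values of Per1 and Nr1d2 at day 1, when Per2, Arntl, Npas2 and Nfil3 had the opposite sign. At day 7 Nr1d1 (-0.24), Arntl (-1.36), Npas2 (-0.99) and Nfil3 (-0.95) had the sign of the markers. The 3 Period genes, Dbp, Tef and Nr1d2 then had the opposite sign. The part of the heart muscle markers in the clock genes' levels was not tested.

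Ratios between the arms of the loop separated all 3 groups, and they are free of library scaling. The ratio of Dbp to Arntl was 0.216, 0.305 and 0.198 at day 1 and 20.2, 16.2 and 25.2 at day 7, against 5.39, 0.749 and 2.02 in sham. The ratio of Nr1d1 to Arntl was 0.924, 0.796 and 1.03 at day 1 and 19.2, 12.3 and 20.1 at day 7, against 11.1, 2.77 and 5.56 in sham. The 3 groups did not overlap in either. For Dbp to Nfil3 it was 0.149, 0.169 and 0.0888 at day 1 and 8.17, 9.16 and 7.93 at day 7, against 2.82, 0.494 and 1.90 in sham. The ratio of Tef to Nfil3 was 1.12, 1.09 and 0.661 at day 1 and 9.11, 8.99 and 7.95 at day 7, against 4.52, 1.43 and 3.86 in sham. The ratio of Per3 to Npas2 was 0.378, 0.555 and 0.442 at day 1 and 30.8, 10.6 and 8.08 at day 7, against 4.33, 0.622 and 1.11 in sham. In each of the 5 ratios every day 1 library was below, and every day 7 library above, every sham library. The genes had been chosen with these group differences known, so this separation follows in part from the choice. It is a description, and no share over other pairs of genes was taken. In all 5 the fold between the highest and lowest library was widest in sham. For Dbp to Arntl it was 1.54 at day 1 and 1.56 at day 7, against 7.2 in sham.

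**Figure D3:**
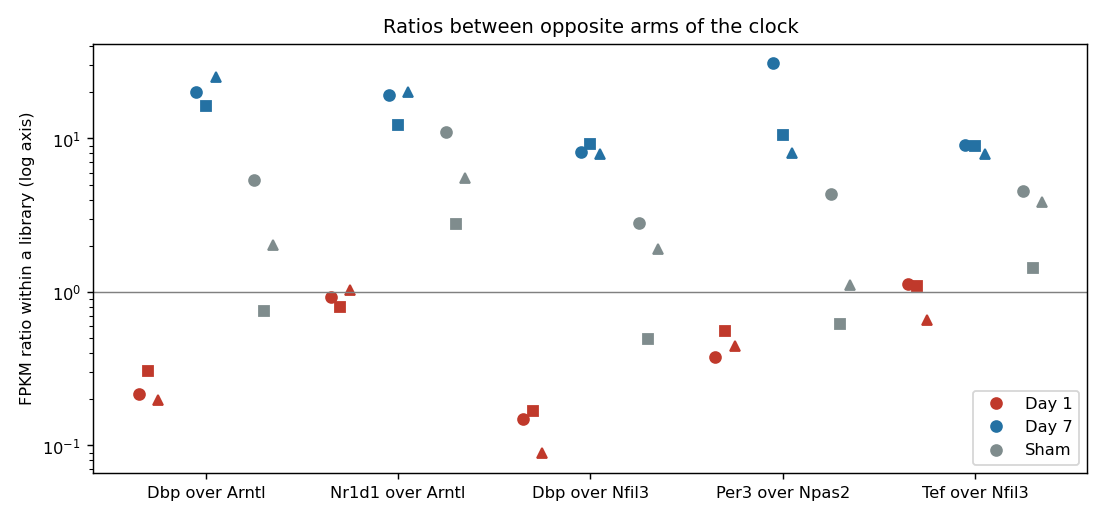
Ratios of FPKM between genes of opposite arms within a library (vertical log axis) for day 1, day 7 and sham, with a marker shape per library number. For Dbp over Arntl the day 1 libraries lie at 0.198 to 0.305, the day 7 libraries at 16.2 to 25.2 and the sham libraries at 0.749 to 5.39.

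The spread among the libraries of a group is not independent of how the genes were chosen. A choice by differences between day 1 and day 7 favours genes with a small spread inside those groups. The values below are therefore a description. The SD of log2(FPKM + 1) within a group had a median over the 10 genes of 0.18 at day 1 and 0.14 at day 7, against 0.33 in sham. Over all 13514 genes the medians were 0.15 at day 1 and 0.14 at day 7, against 0.12 in sham. For 9 of the 10 genes the SD was widest in sham, which held for 23.1% of all genes, and the exception was Per1, widest at day 7.

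The sham libraries were also ordered in the same way by gene after gene. Dbp, Tef, Nr1d1, Nr1d2, Per1, Per2 and Per3 were all highest in sham library 1 and lowest in library 2. Arntl, Npas2 and Nfil3 were highest in library 2, and the first 2 of these lowest in library 1. The highest sham value was 2.78 times the lowest for Dbp, 2.59 times for Arntl and 3.66 times for Npas2, and 1.11 times for Per1. In the infarct groups the place of the highest value was less uniform. At day 1 it lay in library 1 for 4 genes, in library 2 for 4 and in library 3 for 2, and at day 7 for 1, 3 and 6 genes. The lowest values were more alike. At day 1 library 3 was lowest for Dbp, Tef, Nr1d2, Per1, Per2, Per3 and Npas2, and highest for Nr1d1 and Nfil3. At day 7 library 1 was lowest for Dbp, Tef, Nr1d2, Per1, Npas2 and Nfil3. Sham library 1 is the one with the highest fat markers and with airway markers. Its summed atrial markers were at 2698 FPKM, against 1456 and 237 FPKM in sham libraries 2 and 3. In sham library 2 the heat shock gene Hspa1a was at 18.3 FPKM, against 5.50 and 2.21 FPKM in libraries 1 and 3. The part of these tissues, and of whatever raised Hspa1a, in the clock levels was not tested. Between sham libraries 2 and 3, Dbp was at 6.38 and 10.9 FPKM and Arntl at 8.52 and 5.38 FPKM.

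**Figure D4:**
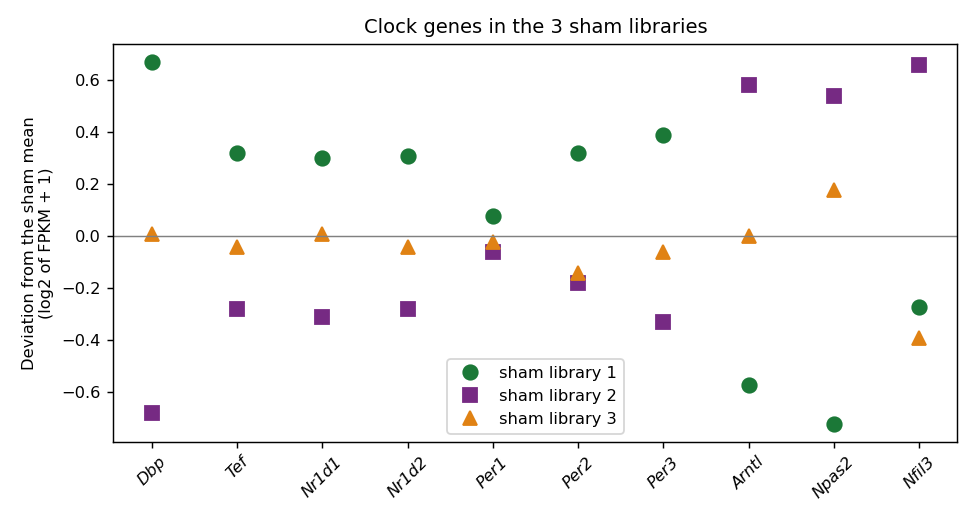
Deviation of each sham library from the sham mean, in log2 of FPKM + 1 (vertical axis), for the 10 genes. Library 1 is at 0.67 for Dbp and -0.57 for Arntl, and library 2 at -0.68 for Dbp and 0.58 for Arntl.

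In sham, where FPKM allow genes to be compared per length, the mean levels ran from Nr1d1 (30.1 ± 6.50 FPKM), Nr1d2 (29.9 ± 6.43), Per1 (23.3 ± 1.2) and Tef (23.0 ± 5.07) through Dbp (11.7 ± 5.73), Nfil3 (8.31 ± 4.0), Per2 (6.50 ± 1.51) and Arntl (5.73 ± 2.63) to Per3 (3.56 ± 1.17) and Npas2 (2.73 ± 1.51; SD, n = 3). The sham values of neighbours in this order overlapped, except those of Tef and Dbp. At day 7 Dbp averaged 30.1 ± 3.34 FPKM, close to Tef at 30.9 ± 1.43 FPKM. At day 1 Nfil3, at 14.5 ± 2.65 FPKM, was first by mean, and Dbp, at 1.90 ± 0.374 FPKM, was last. Neither place was separate, as values of Nfil3 overlapped those of Tef and Per1, and values of Dbp those of Per3.

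The search for genes with a profile over the 9 libraries near to that of Dbp took in 8342 other genes with a mean of 5 FPKM or more. Left out of it were symbols that look like predicted or clone names, which also drops some known genes such as C1qa. Nearness was the root mean square distance of z-scored log2 levels. The nearest were Sphk2 (0.29), Igfbp6 (0.29), which encodes a binding protein of insulin-like growth factors, Ephx1 (0.31), an epoxide hydrolase, Scai (0.36) and Txndc16 (0.38). Tef, at 0.13, was nearer than any of them and Nr1d2 was at 0.29, while Nfil3, at 1.98, was the farthest of the other members. Those nearest to Arntl were Supt6 (0.19), Ccdc186, Top1 and Rb1 (0.30 each) and Kat6a (0.31), with Npas2 at 0.36 and Nfil3 at 0.37. The distance ignores amplitude. Supt6 was between 16.8 and 17.5 FPKM at day 1 and between 14.6 and 15 FPKM at day 7, against 15.9 to 17.0 FPKM in sham.

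Other parts of the clock were read from a list of 26 further genes, of which 23 passed the minimum of 1 FPKM. Arntl2, Rorb and Fbxl21 did not. By limma over all 13514 genes, 2 of the 23 rose and 2 fell at day 1 relative to sham, where 13.4% of all genes rose and 14.7% fell. At day 7, 4 rose and 3 fell relative to sham, against 15.7% and 17.3% of all genes. Between day 7 and day 1, 2 were higher and 2 lower, against 2.71% and 2.14% of all genes. The median log2 difference of the list was -0.07, 0.03 and 0.06 in these comparisons, and that of all genes -0.01, -0.02 and -0.01.

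Among the repressors in that list, Ciart, which encodes a repressor of the ARNTL pair, moved as Dbp did. It was at 1.70, 1.64 and 0.818 FPKM at day 1 and at 5.31, 8.02 and 4.61 FPKM at day 7, against 3.43, 3.37 and 2.71 FPKM in sham. The groups did not overlap. Ciart fell at day 1 (log2 difference -0.82, SE 0.21, limma adjusted p = 0.0214), rose at day 7 (0.72, SE 0.21, adjusted p = 0.0305) and differed between the times by 1.54 (SE 0.21, adjusted p = 0.0105). The day 1 call was lost without sham library 1 or 2 (-0.78 and -0.79). The day 7 call was lost without any 1 of the sham libraries or without day 7 library 1 or 2, with values of 0.52 to 0.78. All keep the direction, and the calls were lost in 5 of 18 and 8 of 18 alternatives in all.

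Bhlhe41, which encodes the repressor DEC2, had the same course. It averaged 4.75 ± 0.689 FPKM at day 1 and 9.26 ± 0.886 FPKM at day 7, against 6.51 ± 0.613 FPKM in sham (SD, n = 3). It fell by 0.39 at day 1 (limma adjusted p = 0.0349) and rose by 0.45 at day 7 (adjusted p = 0.0193), with the calls lost in 8 of 19 and 2 of 19 alternatives. The day 1 call was lost without sham library 1 or 2 or day 1 library 2 or 3 (-0.30 to -0.39), and the day 7 call without sham library 3 (0.38) or day 7 library 1 (0.40). Its relative Bhlhe40 did not pass the test in either comparison with sham (adjusted p = 0.681 and 0.944).

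The cryptochromes, partners of the PER proteins, split. Cry1 averaged 6.66 ± 0.789 FPKM at day 1, against 4.31 ± 1.24 FPKM in sham, and rose (log2 difference 0.55, SE 0.17, limma adjusted p = 0.0384), a call lost in 11 of 19 alternatives. Among them were the fits without sham library 1 or 3, without any 1 day 1 library or without day 7 library 2, with values of 0.46 to 0.64. At day 7 it was at 4.72 ± 0.637 FPKM and did not pass (adjusted p = 0.58). Cry2 rose at day 7, to 9.16 ± 0.629 FPKM, against 6.65 ± 1.23 FPKM in sham (0.42, SE 0.13, adjusted p = 0.036), with the call lost in 6 of 19 alternatives, 5 of them without sham library 2 or 3 or without any 1 day 7 library (0.31 to 0.45).

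Clock, the partner of ARNTL, was at 14.6, 13.3 and 16.5 FPKM at day 1 and at 10.1, 8.68 and 10.6 FPKM at day 7, against 13.2, 17.5 and 13.9 FPKM in sham. It fell at day 7 (log2 difference -0.55, SE 0.13, limma adjusted p = 0.0143), with the call lost in 1 of 19 alternatives, the common total. Rora, which encodes an activating receptor for the ROR element, did not pass in either comparison with sham (adjusted p = 0.541 and 0.316). Hlf, the third member of the family of Dbp and Tef, was at 3.98, 2.62 and 1.54 FPKM at day 1 and 4.99, 6.53 and 5.76 FPKM at day 7, against 7.97, 3.64 and 4.66 FPKM in sham, and did not pass (adjusted p = 0.0692 and 0.763).

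The kinases and ubiquitin ligases that time the decay of PER and CRY were mostly steady. Of Csnk1d, Csnk1e, Csnk1a1, Csnk2a1, Gsk3b, Btrc and Fbxw11, none passed at day 1 by limma. At day 7 Csnk1d rose (0.29, SE 0.09, adjusted p = 0.0372) and Csnk2a1 fell (-0.36, SE 0.10, adjusted p = 0.0273), and these calls were lost in 11 of 19 and 8 of 19 alternatives, among them those without any 1 of the sham libraries or without day 7 library 1, where Csnk1d was at 0.21 to 0.32 and Csnk2a1 at -0.28 to -0.37. Nono, an RNA-binding partner of PER, rose at day 1 to 41.5 ± 1.11 FPKM, against 32.3 ± 0.494 FPKM in sham (0.35, SE 0.07, adjusted p = 0.00992). Usp2, Cipc, Timeless and Rack1 did not pass in any of the 3 comparisons.

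**Figure D5:**
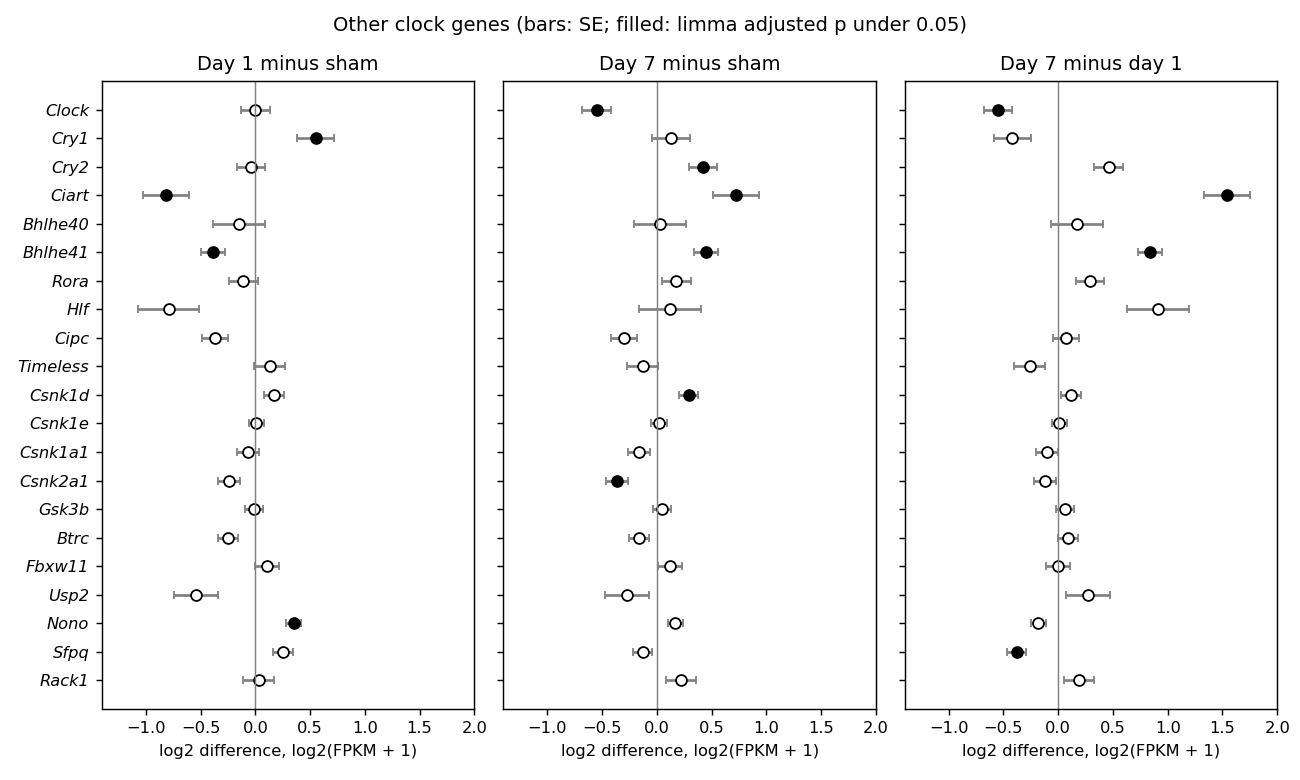
Log2 differences on the log2(FPKM + 1) scale (horizontal axes) of 21 of the 23 other clock genes tested, with SE bars, for day 1 minus sham, day 7 minus sham and day 7 minus day 1. Filled points passed limma at an adjusted p under 0.05, and Ciart, at -0.82, 0.72 and 1.54, is filled in all 3.

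Output genes rhythmic in many tissues or in heart made a further list of 20, all tested. At day 1, 2 rose and 6 fell relative to sham, where 13.4% of all genes rose and 14.7% fell. At day 7, 4 rose and 9 fell, against 15.7% and 17.3% of all genes, and the median log2 difference was -0.61, against -0.02 over all genes. Klf15, a cardiac metabolic regulator, fell at day 7 to 5.68, 10.7 and 10.7 FPKM, against 26.2, 19.8 and 23.2 FPKM in sham (-1.30, SE 0.23, limma adjusted p = 0.00709). Nampt, which makes NAD precursors, fell at both times (-0.77 and -1.53, adjusted p = 0.0166 and 0.00234), as did Ppara, a lipid-sensing receptor (-1.20 and -1.33, adjusted p = 0.00369 and 0.00269), and Kcnip2, a potassium channel subunit (-1.05 and -0.99, adjusted p = 0.0312 and 0.0346). The day 1 call of Nampt was lost without sham library 1 or 2 or day 1 library 2 (-0.71 to -0.73). Those of Kcnip2 were lost without any 1 of the sham libraries, at -0.93 to -1.11 at day 1 and -0.87 to -1.05 at day 7, and at day 1 also without any 1 day 1 library.

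A few output genes went up. Tspan4, a tetraspanin gene, rose at day 7 to 45.6, 33.2 and 33.0 FPKM, against 16.0, 10.7 and 15.3 FPKM in sham (1.36, SE 0.20, limma adjusted p = 0.00386). Cys1, which encodes a cilium protein, rose at day 7 to 13.1, 7.28 and 9.46 FPKM, against 4.05, 4.31 and 2.44 FPKM in sham (1.24, SE 0.23, adjusted p = 0.00731), and differed from day 1 by 1.63 (adjusted p = 0.011). Klf10 rose at both times (1.08 and 0.71, adjusted p = 0.00491 and 0.0167), with the day 7 call lost without day 7 library 1 (0.63). In the same libraries 5 of 9 heart muscle markers fell at day 1 and 6 of 9 at day 7 by limma. Of 4 fibroblast markers 2 rose at each time, while Dcn was below every sham library at day 1 (-0.32, adjusted p = 0.133). The part of these markers in the calls of the output genes was not tested. Without sham library 1 and day 1 library 2, the 2 with the highest airway markers, calls were fewer over all genes too. At day 1, 245 of all genes were then higher and 142 lower, against 1817 and 1993 with all libraries. Of the other clock genes 0 and 0 were called higher and lower at day 1, and 2 and 1 at day 7. Of the output genes 1 and 0 were called higher and lower at day 1, and 2 and 7 at day 7.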

How the data were processed

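Total RNA of hearts was extracted with TRIzol and built into libraries with a VAHTS Universal V6 kit (labels' protocols). Hdc-/- hearts, which the labels also mention, were not analysed here. The authors deposited FPKM per transcript. HISAT2 2.1.0, HTSeq 0.11.2, FastQC 0.11.9 and the build GRCm39 are named, per the submitters' processing notes. The sources used here do not give the annotation release or the use of strand. Of the positive values 11.8% were under 1e-06, so reads had been divided among transcripts and depth is unknown. The counting error of low genes could therefore not be given.

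Transcripts were summed per gene. The 13514 genes with a mean of 1 FPKM or more entered limma 3.58.1 (R 4.3.3) on the log2(FPKM + 1) scale (variance trend, 1 mean per group, 9 libraries, two-sided, Benjamini-Hochberg over all tested genes, called at an adjusted p under 0.05). The scale understates changes of low genes. With 3 libraries a group, exact permutation p-values stop at 0.1, so none is given. The labels do not say that libraries are separate animals, so p-values measure spread between libraries, which may be technical. The procedure was tested on simulated data. No 2 libraries held identical values.

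The members and lists were chosen with earlier results of these data known. Named were all members, the other clock genes, part of the output and time-cue lists, and the 5 genes nearest in profile to Dbp and to Arntl. Called genes not described above were Tns2 and Slc16a1 (lower at both times), Dgat2 and Dusp1 (lower at day 1) and Lonrf3 (higher at day 1). At day 7 they were Pim3, Fkbp5 and Errfi1 (lower) and Wee1 (higher). All of these calls but those of Tns2 were lost in some fit with a library left out. All 26, 20, 8 and 6 genes of the lists were in the file, Rack1 under an older symbol. The values of 2 genes of the first list are not reported here, and they remain in its counts. GENCODE M21 gave transcript types and overlaps only. The results were recomputed with 0.1 as pseudocount, without the filter or at 5 FPKM, after rescaling to a common total (TPM), quantile or median-ratio scaling, in fits of the 2 groups compared, with replicate number as a block, on the most expressed transcript, and with libraries left out.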

Additional observations from a re-analysis of the deposited data

Results flagged for a closer look

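For 3 of the clock genes every day 1 library moved below, and every day 7 library above, all sham libraries. The day 7 minus day 1 log2 difference was 3.42 for Dbp, 1.15 for Tef and 1.83 for Per3, and it was not tested because these genes had been chosen on this contrast. The values of the 3 groups are those given above.

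For 13 further genes of the lists, the effect at day 7 differed from that at day 1 by limma, where the day 7 minus day 1 difference is the difference of the effects against sham. Among clock genes these were Ciart (1.54, adjusted p = 0.0105), Bhlhe41 (0.84, adjusted p = 0.0105), Clock (-0.55, adjusted p = 0.0461) and Sfpq, a splicing factor that binds PER (-0.38, adjusted p = 0.0488). Among output genes they were Cys1 (1.63, adjusted p = 0.011), Tspan4 (0.95, adjusted p = 0.0348), Leo1 (-0.73, adjusted p = 0.0203), Nampt (-0.76, an adjusted p that rounds to the threshold of 0.05) and the cell cycle inhibitor gene Cdkn1a (-0.92, adjusted p = 0.0431). The others were Cirbp (0.90, adjusted p = 0.00611), Hsph1 (-1.08, adjusted p = 0.0394), Hspa8 (-0.77, adjusted p = 0.0473) and Zbtb16 (-1.49, adjusted p = 0.0395). Tested in the lists were 23 clock genes, 20 output genes, 8 genes that glucocorticoids induce and 6 that respond to temperature. Over all 13514 genes the same contrast called 2.71% upward and 2.14% downward. The calls of Sfpq, Nampt, Clock and Hspa8 were lost in 17, 15, 14 and 14 of 19 alternatives, those of Zbtb16, Tspan4, Hsph1 and Cdkn1a in 13, 12, 11 and 11, and that of Leo1 in 3. Most of these leave out 1 library, of any group, and keep the direction. The calls of Ciart, Bhlhe41, Cys1 and Cirbp were lost in 1 setting, the fit without sham library 1 and day 1 library 2.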

How the results depend on the processing

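Members kept their sign in nearly every setting. Of 567 values of the 30 member differences under the alternatives, 545 moved by less than 1 SD of the replicates and 22 by more. Signs turned for Per2 at day 1 (-0.02 without sham replicate 2), Nr1d1 at day 7 (0.11 with TPM) and Per1 at day 7 (-0.17 with the most expressed transcript, -0.10 without day 7 replicate 3). The genes of the 4 lists had 57 calls over the 3 comparisons. Of their 1079 values under the alternatives, 770 kept the call and 309 (28.6%) lost it, and none turned sign. Of 2155 values of the comparisons not called, 46 gained a call. The median of all genes was 0.24 at day 1 and 0.30 at day 7 with TPM, against -0.01 and -0.02 for FPKM as deposited, so rises and falls there are relative to these. It raised the share of calls that were higher to 80.8% and 88.1%, against 47.7% and 47.6%.

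For counts over all genes, leaving out 1 library gave 952 to 1952 higher and 792 to 2305 lower at day 1, 1120 to 2278 and 1033 to 2625 at day 7, and 74 to 272 and 55 to 235 between the times. For the other clock genes these ranges were 1 to 2 and 0 to 3 at day 1, 0 to 4 and 1 to 3 at day 7, and 2 to 2 and 0 to 1 between the times. For the output genes they were 1 to 3 and 2 to 7, 3 to 4 and 6 to 11, and 1 to 2 and 0 to 2. Without sham 1 and day 1 library 2, higher and lower counts were 245 and 142 at day 1, 1086 and 1054 at day 7 and 32 and 24 between the times. In that fit the other clock genes numbered 0 and 0, 2 and 1, and 0 and 0. The output genes numbered 1 and 0 at day 1, 2 higher and 7 lower at day 7, and 0 and 0 between the times.

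With TPM, 598 genes were lower at day 1, 3949 higher and 532 lower at day 7, and 113 higher and 73 lower between the times. The other clock genes then had 0 lower in each comparison, and the output genes 5 lower at day 7 and 1 higher between the times. With a minimum of 5 FPKM, 1199, 1310 and 242 genes were higher at day 1, at day 7 and between the times, with 1 output gene higher at day 1 and 1 other clock gene higher and 1 lower between the times. With only the 2 groups compared, 78 and 88 genes were higher and lower between the times, 1 and 4 other clock genes at day 1, 0 lower between the times, and 1 output gene higher there. Without a filter the other clock genes higher were 1 at day 1 and 2 at day 7, with 0 lower between the times, and the output genes 1 and 1 between the times. Quantile scaling gave 1 output gene higher and 5 other clock genes lower at day 1. The most expressed transcript gave 2 other clock genes higher at day 7 and 1 lower between the times, and the pseudocount of 0.1 gave 1 lower there. The cause of these shifts was not tested.

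Whether same-numbered libraries pair could not be decided, because the deviations of 3 libraries of a group are tied to one another. Of 9 correlations of same-numbered deviations, 4 were over 0.1 (range -0.37 to 0.27). Those of differently numbered libraries ran from -0.53 to 0.4. Between day 7 and day 1 the same-numbered values were 0.05, 0.23 and 0.18, and the others ran from -0.25 to 0.04. With the replicate number as a block, 144 genes were higher and 93 lower between the times, with 0 other clock genes lower, 1 output gene higher and 1 lower, and 1 other clock gene was higher at day 1. Npas2 and the low clock genes fall under the 5 FPKM minimum and have no value there.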

Other observations

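Genes that answer to systemic time cues were read from 2 further lists. Of 8 genes that glucocorticoids induce, 3 fell at day 1 and 6 at day 7, and 0 rose at either time by limma (also 0 at an unadjusted p under 0.05), where 14.7% and 17.3% of all genes fell. The count at day 1 was 1 without sham library 2 or day 1 library 2, and 1 to 4 over the libraries left out. At day 7 it was 2 without sham library 1 or day 7 library 1 or 2, 3 without sham library 2 or 3 and 4 without day 1 library 2. Ddit4 fell at both times, to 12.0, 14.2 and 13.8 FPKM at day 1 and 13.5, 18.8 and 23.4 FPKM at day 7, against 34.7, 48.1 and 31.0 FPKM in sham (log2 differences -1.42 and -1.0, adjusted p = 0.00386 and 0.0108). Zbtb16, a transcription factor gene, fell at day 7 to 6.37, 12.3 and 16.0 FPKM, against 50.2, 40.0 and 52.7 FPKM in sham (-2.03, SE 0.32, adjusted p = 0.00502). Tsc22d3 and Klf9 were among the others that fell at day 7 (-0.69 and -0.78, adjusted p = 0.0365 and 0.0234), with both calls lost without any 1 of the sham libraries or without day 7 library 1 or 2 (-0.51 to -0.80), and Sgk1 did not pass at either time.

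Of 6 genes that respond to temperature, 1 fell at day 1 and 2 at day 7 by limma, where 14.7% and 17.3% of all genes fell. Cirbp, the cold-inducible RNA-binding protein gene, was at 11.6, 10.8 and 11.7 FPKM at day 1 and 19.7, 25 and 22.1 FPKM at day 7, against 23.6, 19.7 and 23.4 FPKM in sham, with day 1 below every other library. It fell at day 1 (-0.90, SE 0.11, limma adjusted p = 0.00229) and did not pass at day 7. The heat shock genes Hsph1 and Hspa8 fell at day 7 (-1.15 and -0.77, adjusted p = 0.00983 and 0.0151), the Hspa8 call being lost without sham library 2 (-0.62). Without sham library 3 the count at day 7 was 4. Rbm3 did not pass at either time.

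The transcripts of Per1 differed in share. ENSMUST00000132462 held 36.4% to 46.5% of the gene's FPKM at day 7, against 18.9% to 28.7% in sham. ENSMUST00000021271 held 34.1% to 47.3% at day 7, against 46.0% to 56.9% in sham. The sources used here do not name the tool that divided reads among transcripts, and these shares were not tested.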
